A study of Mus musculus with 12 samples.

Results

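The common gamma chain receptors and the Janus kinases (JAKs) were described here through 10 listed mouse genes, Il2ra, Il2rb, Il2rg, Il7r, Il4ra, Il21r, Il15ra, Jak1, Jak2 and Jak3, out of 21900 protein-coding genes. The members were set by name, and the measure was any overlap between a gene's RefSeq interval and the broad peaks of H3K79me2, the dimethyl mark that DOT1L places on histone H3. Male mouse CD8 T cells, activated through CD3 and CD28, were grown to day 8 with EPZ-5676, with SGC-0946 or with 0.1% DMSO. All groups shared a genotype given as wild type for CreERT2 and for the floxed DOT1L allele and heterozygous for OT-I, a T cell receptor transgene against an ovalbumin peptide, so Dot1l was intact in every sample. The animals' age is not given in the sources used here. EPZ-5676 (pinometostat) and SGC-0946 are DOT1L inhibitors, both labelled 10 mM, a unit that is doubtful because such compounds are used at micromolar levels. Each treatment had 2 immunoprecipitated and 2 input libraries, with yeast chromatin added as an external standard.

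The values come from 1 deposited peak list per treatment, so no spread between replicates is measured, no difference was tested and no p-value is given. The EPZ, SGC and DMSO lists held 4443, 55 and 12578 peaks over 18.1, 0.138 and 68.4 Mb. Fold enrichment is the authors' value of a peak over background, and is read here only within its own list. Read depth is unknown, and a gene without a peak is a gene where none was called. In a mixed population, fewer cells carrying the mark and less mark per cell cannot be told apart. The labelled cell type was checked on 9 T cell markers, Cd8a, Cd8b1, Cd2, Cd3d, Cd3e, Cd3g, Cd5, Lck and Trac. All 9 had peaks in both the EPZ and the DMSO list, against 15.9% and 34.5% of all protein-coding genes. Among them only Cd8a and Cd8b1 set CD8 apart from CD4 T cells. None of 3 CD4 T cell or 5 myeloid markers had a peak in either list. Of 5 B cell markers 0 had an EPZ peak and 1, Cd79a, had a DMSO peak, which reached 0.254 kb into the gene. Of 3 NK cell markers 1, Nkg7, which CD8 T cells also use, had a peak in both lists.

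The common gamma chain, encoded by Il2rg, is the shared subunit of the receptors for interleukins that keep T cells alive and make them divide. It carries JAK3, while its signalling partner chain in each receptor carries JAK1. Ligand binding brings the kinases together, and they phosphorylate STAT transcription factors. JAK2 serves other cytokine receptors, among them those for interferon gamma and the shared beta chain family. In T cells H3K79me2 accompanies transcription and lies mainly over the first part of transcribed genes.

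The promoters show where called marking began relative to the start site. RefSeq promoter windows (GRCm38.p6, 250 bases before to 50 after a start site) were found for 9 of the 10 genes, Il2rb being the one without. In the 4 windows below, printed 5′ to 3′, capitals mark bases under a DMSO peak. They were chosen to show a window wholly inside a peak (Il4ra, chr7:125552021-125552320, plus strand), windows that the peak edge divides (Il2rg, chrX:101268206-101268505, and Il7r, chr15:9529827-9530126, both minus strand) and a window before the peak (Jak2, chr19:29251553-29251852, plus strand).
Il4ra: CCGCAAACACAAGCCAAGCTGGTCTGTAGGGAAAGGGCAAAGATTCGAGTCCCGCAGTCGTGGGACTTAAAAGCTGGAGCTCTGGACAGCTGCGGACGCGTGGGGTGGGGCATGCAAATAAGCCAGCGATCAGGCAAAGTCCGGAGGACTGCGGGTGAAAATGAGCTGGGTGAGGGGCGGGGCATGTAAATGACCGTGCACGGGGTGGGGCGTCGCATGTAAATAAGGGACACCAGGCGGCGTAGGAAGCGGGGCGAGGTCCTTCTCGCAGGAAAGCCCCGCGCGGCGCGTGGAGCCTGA
Il2rg: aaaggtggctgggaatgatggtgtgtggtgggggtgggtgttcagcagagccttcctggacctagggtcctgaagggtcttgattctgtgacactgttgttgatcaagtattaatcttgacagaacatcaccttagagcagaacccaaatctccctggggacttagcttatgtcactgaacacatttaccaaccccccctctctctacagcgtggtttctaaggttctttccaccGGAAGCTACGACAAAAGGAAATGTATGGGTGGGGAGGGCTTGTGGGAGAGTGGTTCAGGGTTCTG
Il7r: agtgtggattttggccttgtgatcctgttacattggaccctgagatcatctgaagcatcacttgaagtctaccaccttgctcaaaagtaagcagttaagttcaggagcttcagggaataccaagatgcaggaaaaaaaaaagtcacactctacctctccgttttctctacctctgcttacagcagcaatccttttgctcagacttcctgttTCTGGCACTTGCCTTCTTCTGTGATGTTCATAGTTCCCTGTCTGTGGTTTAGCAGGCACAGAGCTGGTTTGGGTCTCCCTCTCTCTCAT
Jak2: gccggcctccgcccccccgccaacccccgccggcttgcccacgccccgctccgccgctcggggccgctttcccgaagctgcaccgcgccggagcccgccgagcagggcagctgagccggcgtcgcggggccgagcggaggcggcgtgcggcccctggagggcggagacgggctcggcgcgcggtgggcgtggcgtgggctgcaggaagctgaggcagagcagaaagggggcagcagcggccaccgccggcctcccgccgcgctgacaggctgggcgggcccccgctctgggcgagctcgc

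The Il4ra window lay under peaks over all 300 bases in both the EPZ and the DMSO list, and so did those of Il21r and Jak1. In the Il2ra window the EPZ peak covered 197 bases and the DMSO peak all 300. The Il2rg window held 14 bases under the EPZ peak and 65 under the DMSO peak, and the Il7r window held 0 bases under an EPZ peak and 89 under a DMSO peak. Jak2, Jak3 and both windows of Il15ra had no base under a peak of either list, although each of these genes had a DMSO peak further in. A full window therefore accompanied Il4ra, Il21r and Jak1, and no base was covered in Jak2, Jak3 and Il15ra.

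Base composition did not follow that order. Jak2, with no base covered, had 44 CpG pairs in its window and 81.0% G and C, more CpG than 97.1% of the 21263 promoter windows of protein-coding genes, where the median was 13. Il4ra and Jak1, wholly covered, had 25 and 29, while Il2ra, also wholly covered by the DMSO peak, had 3. Il7r had the fewest, 1. The letters TTCNNNGAA, the form that STAT dimers bind, were searched on both strands, which read alike, and occurred in 1 window of the 9 genes, as TTCAGGGAA in Il7r from 142 bases before the start site, outside its DMSO peak; 7.69% of all windows hold these letters. The letters GGGCGG or their reverse complement were present in the windows of Il4ra, Il21r, Jak1, Jak2 and Jak3. They were also in the first window of Il15ra but not in its other one, against 46.2% of all windows.

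Of the 10 genes 8 had a peak in EPZ, 0 in SGC and all 10 in DMSO. Over all protein-coding genes the share with a peak was 15.9% in the EPZ list, 0.142% in the SGC list and 34.5% in the DMSO list, and of the genes marked in DMSO 46.1% had an EPZ peak. A count of 0 of 10 in SGC is near that list's background and says little about these genes. The 2 genes without an EPZ peak were Jak2 and Il15ra. EPZ peaks covered 109.6 kb of the 10 genes together, against 214.1 kb under DMSO peaks, out of 386.4 kb of gene. Of the DMSO peak bases 51.1% lay under EPZ peaks, or 54.7% without Jak1, against 26.6% over all DMSO-marked genes.

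**Figure D1:**
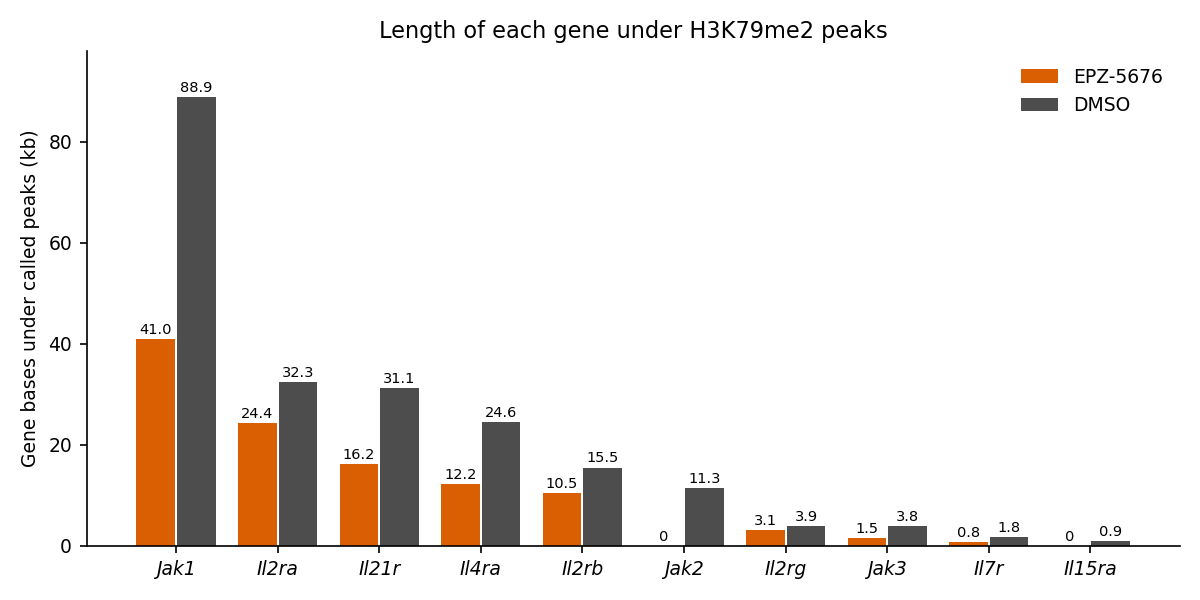
Bars give the kb of each gene under called peaks in EPZ-5676 (orange) and in DMSO (grey), with the genes ordered by the DMSO value. Jak1 had the longest marked stretch in both lists, at 41.0 kb in EPZ and 88.9 kb in DMSO, and Jak2 and Il15ra had no EPZ bases.

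Il2rg, the shared chain, is the shortest of the genes, at 3.87 kb on chromosome X from 101264385 to 101268255. An EPZ peak covered 3.06 kb of it, and a DMSO peak covered the whole gene. The EPZ peak began 36 bases after the start site and ended 3.09 kb after it, inside the gene; the DMSO peak began 15 bases before the start site and ended 4.74 kb after it, past the gene's end and over 477 bases of Gm614. Within the gene interval 78.97% of the DMSO bases lay under the EPZ peak, the highest share of the 10 genes. That share was higher than in 92.1% of the genes marked in both lists. Over the whole DMSO peak the EPZ cover was 64.3% at Il2rg, below 69.6% at Il2ra and 67.6% at Il2rb. Marking of Gm614 cannot be separated from that of Il2rg in DMSO, and Gm614 had no EPZ peak.

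Il2ra and Il2rb encode the chains that join Il2rg in the interleukin-2 receptor; the alpha chain, CD25, raises affinity and is induced by activation, and the beta chain is shared with the interleukin-15 receptor. At Il2ra, on chromosome 2 from 11642792 to 11693194, EPZ peaks covered 24.4 kb, against 32.3 kb under the DMSO peak. The marking was in 2 pieces in EPZ, from 147 bases before to 7.69 kb after the start site and from 11.6 to 28.2 kb after it, with 3.90 kb between them. In DMSO it was 1 peak of 35.2 kb, from 2.90 kb before to 32.3 kb after the start site. The first EPZ piece was the stronger within its list, at a fold enrichment of 9.95 against 4.51 for the second. At 75.4% the EPZ share of DMSO bases was higher than in 90.2% of genes marked in both lists.

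At Il2rb, on chromosome 15 from 78479256 to 78511621, a single EPZ peak of 10.5 kb lay inside a single DMSO peak of 15.5 kb, so 67.6% of the DMSO bases were under it. Counted from the lower end of the gene interval, the EPZ peak ran between 6.27 and 16.7 kb and the DMSO peak between 1.62 and 17.1 kb. Their upper edges thus lay close together near the middle of the 32.4 kb interval, and the part above them held no peak. The reference used gave no strand for Il2rb, so its peak edges are not named 5′ or 3′. This EPZ peak had the highest fold enrichment of any EPZ peak in the 10 genes, 17.3, above 98.9% of the EPZ list. The DMSO peak, at 8.47, stood above 96.2% of the DMSO list.

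Il4ra and Il21r, which encode the ligand-binding chains for interleukin-4 and interleukin-21, are neighbours on chromosome 7, from 125552271 to 125579474 and from 125603252 to 125634397. At Il4ra the EPZ peak covered 12.2 kb and the DMSO peak 24.6 kb of the gene, so the covered share of the gene was 45.0% in EPZ and 90.3% in DMSO. The 5′ edges lay close together, 296 bases before the start site in EPZ and 428 bases before it in DMSO, while the 3′ edges lay 12.2 kb after it in EPZ and 24.6 kb after it in DMSO. The EPZ peak had a fold enrichment of 15.2, above 98.4% of EPZ peaks, and the DMSO peak one of 10.6, above 98.8% of DMSO peaks and the highest DMSO value of the 10 genes.

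At Il21r, EPZ peaks covered 16.2 kb, in a piece that ended 14.8 kb after the start site and a short one of 1.20 kb from 16.3 kb, while 1 DMSO peak of 34.0 kb covered all 31.1 kb of the gene. The 5′ edges lay 260 bases before the start site in EPZ and 2.56 kb before it in DMSO. The EPZ shares of DMSO bases were close, 49.8% at Il4ra and 52.0% at Il21r. The short second piece was weak within its list, at a fold enrichment of 2.87, above 5.20% of EPZ peaks. Between the 2 genes no peak was called over 38.7 kb in EPZ and over 24.0 kb in DMSO, so the peaks of the pair were separate in both lists.

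Il7r, the alpha chain for interleukin-7, typical of naive and memory T cells and lowered by activation, was thinly marked. On chromosome 15 from 9506159 to 9529941, 0.791 kb of its 23.8 kb lay under an EPZ peak and 1.77 kb under 2 DMSO peaks. The EPZ peak, 2.36 to 3.15 kb after the start site, overlapped the inner DMSO peak, 2.54 to 3.13 kb after it, and was the wider of the pair, at 791 bases in EPZ against 600 bases in DMSO. The other DMSO peak, 1166 bases long at the start site, had no EPZ peak on it, although its DMSO fold enrichment of 3.64 was above the 3.15 of the inner one. Il7r was the one gene of the 10 with EPZ bases inside the gene but outside DMSO peaks, 0.191 kb.

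Il15ra, whose product presents interleukin-15 to neighbouring cells, lies 12.0 kb beyond Il2ra on chromosome 2, from 11705172 to 11733985. It had no EPZ peak and 1 DMSO peak of 891 bases with a fold enrichment of 4.51, from 629 to 1519 bases after the first of its 2 start sites. That peak covered 3.09% of the gene, against 64.1% for the DMSO peak of Il2ra next to it, and 30.8 kb without a DMSO peak separated them.

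Jak1, the kinase of the signalling partner chains, is the longest gene of the set, 113.3 kb on chromosome 4 from 101151974 to 101265282. Its 8 EPZ peaks covered 41.0 kb and its 4 DMSO peaks 88.9 kb. The widest DMSO peak, 77.0 kb from 459 bases before the start site, was the 19th widest of the 12578 in its list, and all 8 EPZ peaks lay on it. Among DMSO peaks that an EPZ peak overlapped, 19.4% held 2 or more EPZ peaks and 0.177%, or 6 peaks, held 8 or more.

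The Jak1 EPZ peaks were unequal. The one at the start site spanned 28.1 kb with a fold enrichment of 5.71, and the other 7 together spanned 13.3 kb, with values of 2.94 to 3.18, above 10.7 to 28.2% of the EPZ list. Those 7 had −log10 q values of 1.43 to 1.96, and with a −log10 q of at least 2 required, 1 EPZ peak over 27.7 kb of the gene was left. The 7 lay between 30.6 and 66.7 kb after the start site, with gaps of 2.17 to 10.0 kb. The 3 DMSO peaks beyond the widest one, from 78.4 to 94.7 kb after the start site, had fold enrichments of 3.12 to 4.23 and no EPZ peak on them. The EPZ and DMSO peaks at Jak1 also cover the pseudogene Gm52754, and DMSO peaks alone cover the pseudogene Gm19063 and 52 bases of the small nuclear RNA gene Gm24468. The 5′ edges of the marking were nearly the same, 470 bases before the start site in EPZ and 459 in DMSO.

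Jak3, the kinase of the common gamma chain, was marked over a short stretch at its 5′ end, on chromosome 8 from 71676383 to 71690577. The EPZ peak covered 1.52 kb, from 431 to 1954 bases after the start site, and the DMSO peak 3.83 kb, from 154 to 3985 bases. The EPZ peak thus lay within the DMSO peak and covered 39.8% of it. Insl3, annotated inside the Jak3 interval at its 3′ end, had no peak in any list.

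Jak2, on chromosome 19 from 29251803 to 29313095, had no EPZ peak although DMSO peaks covered 11.3 kb of it, more than the 3.83 kb of Jak3. Its DMSO peaks were 10.2 kb long, from 395 bases after the start site, and 1.08 kb long, from 16.3 kb after it. Their fold enrichments of 3.52 and 2.88 lay above 55.3% and 22.7% of the DMSO list. The 3 kinases thus had DMSO values of 7.52 for Jak1, 4.32 for Jak3 and 3.52 for Jak2.

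**Figure D2:**
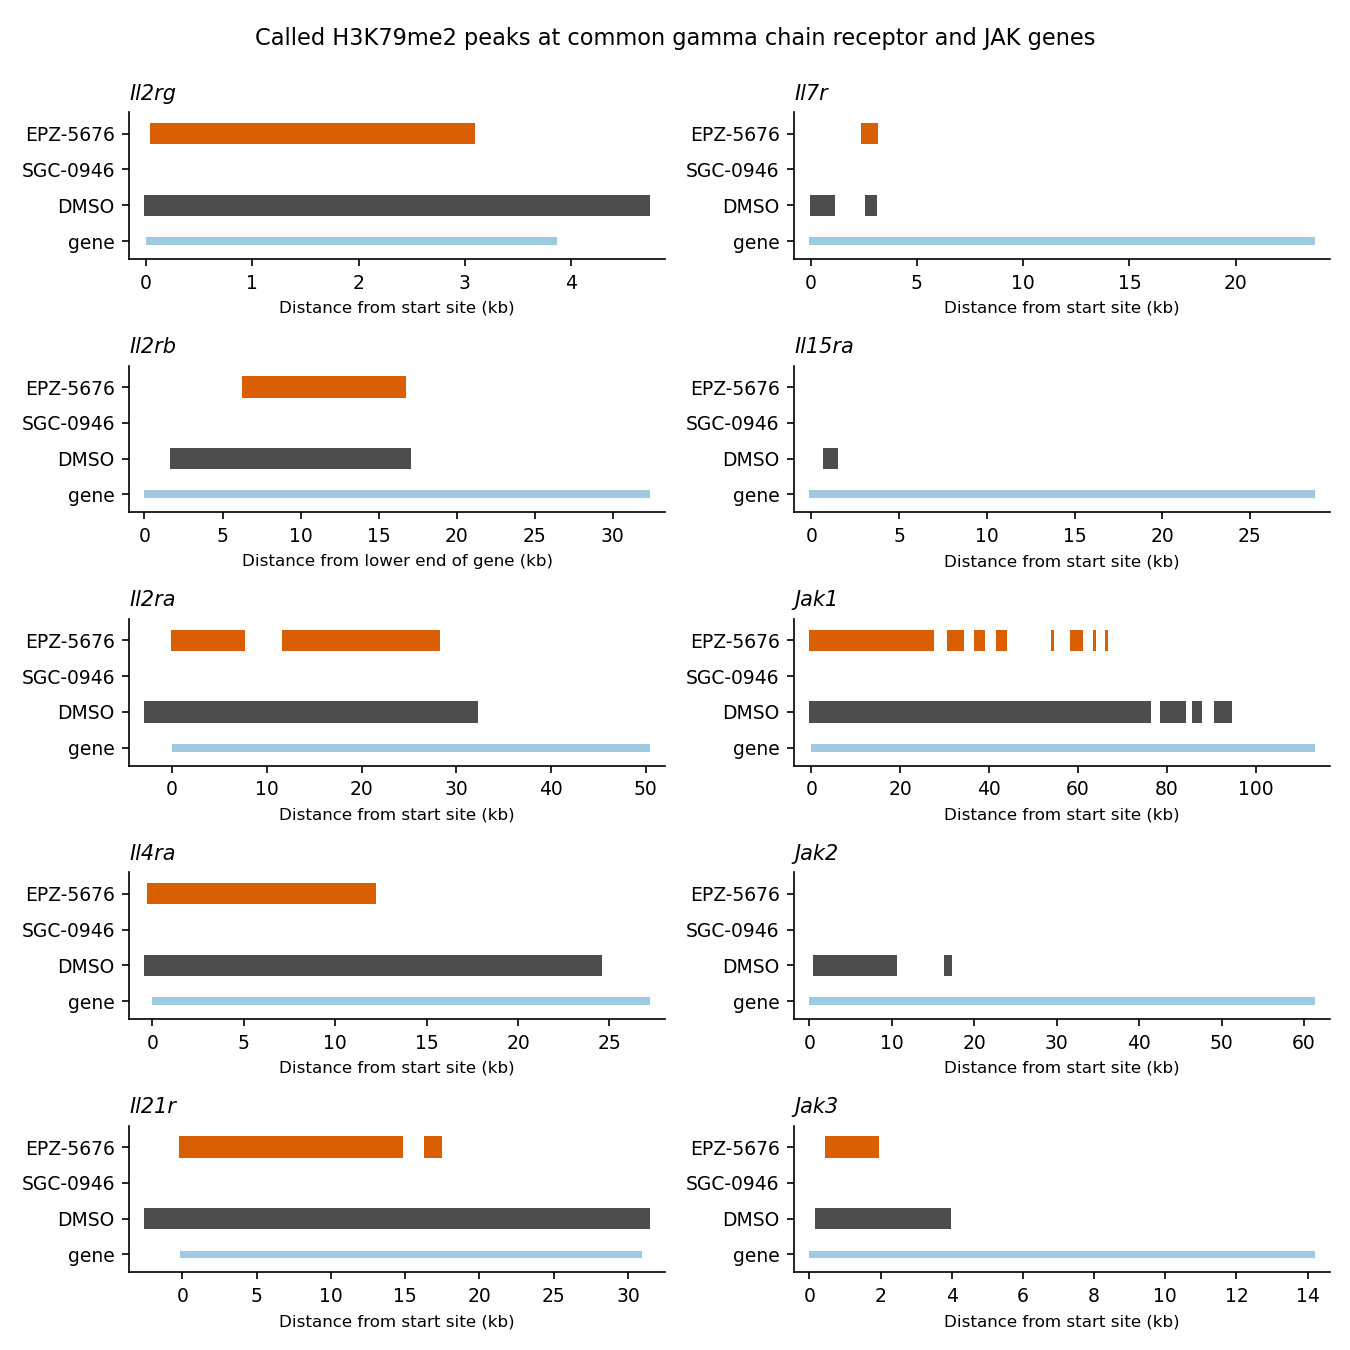
Each panel shows a gene (pale blue) with its called peaks in EPZ-5676 (orange), SGC-0946 (no peak in any panel) and DMSO (grey), by distance in kb from the first start site, or from the lower end of the interval for Il2rb. EPZ peaks lie inside or on DMSO peaks, near the start site at Il4ra and Il21r and broken into 8 pieces at Jak1.

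Across the 10 genes, 8 of 15 DMSO peaks were overlapped by an EPZ peak, 53.3% with an exact 95% interval of 26.6 to 78.7 that covers counting only, against 26.9% of all DMSO peaks. All 17 EPZ peaks lay on a DMSO peak, as 4436 of the 4443 in the whole list did. The median highest DMSO fold enrichment was 7.27 in the 10 genes and 4.47 over DMSO-marked genes, and the median length under DMSO peaks 13.4 and 4.10 kb. Gene lengths differed less, with medians of 30.0 kb here and 23.4 kb over DMSO-marked genes. In the 8 genes with an EPZ peak, the median EPZ share of DMSO bases was 50.9%, against 34.3% (interquartile range 18.4 to 55.4) over genes marked in both lists.

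The 10 genes fell apart by DMSO fold enrichment, at boundaries chosen after their values were seen. Il2ra, Il2rb, Il2rg, Il4ra, Il21r and Jak1 had values of 7.02 to 10.6. All 6 had EPZ peaks, over 46.1 to 78.97% of their DMSO bases. The lowest share, 46.1% at Jak1, rests in part on EPZ peaks with a −log10 q below 2. With at least 2 required, Jak1 kept 27701 bases under EPZ peaks and 82572 under DMSO peaks, a lower share. Of all 1180 genes at 7 or more, 93.2% had an EPZ peak, with a median share of 59.9% (interquartile range 46.4 to 75.9) that 3 of the 6 exceeded. Il7r, Il15ra, Jak2 and Jak3 had values of 3.52 to 4.51, and 2 of the 4 had an EPZ peak, against 18.6% of 4584 genes below 5.

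Each of these 4 genes was set beside the DMSO-marked genes within 0.5 of its own DMSO fold enrichment. Jak2 had no EPZ peak, against 4.85% with one among such genes, and Il15ra had none, against 45.2%. Jak3 had an EPZ peak, against 35.0% of such genes, and Il7r had one, against 7.49%. The shares at Jak3 and Il7r, 39.8% and 34.0%, were above the 14.3% median (interquartile range 7.66 to 24.3) of genes below 5 that had an EPZ peak. Each rests on 1 EPZ peak, with a −log10 q of 2.48 at Jak3 and 2.12 at Il7r. Neither peak was left with a −log10 q of at least 5 required.

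**Figure D3:**
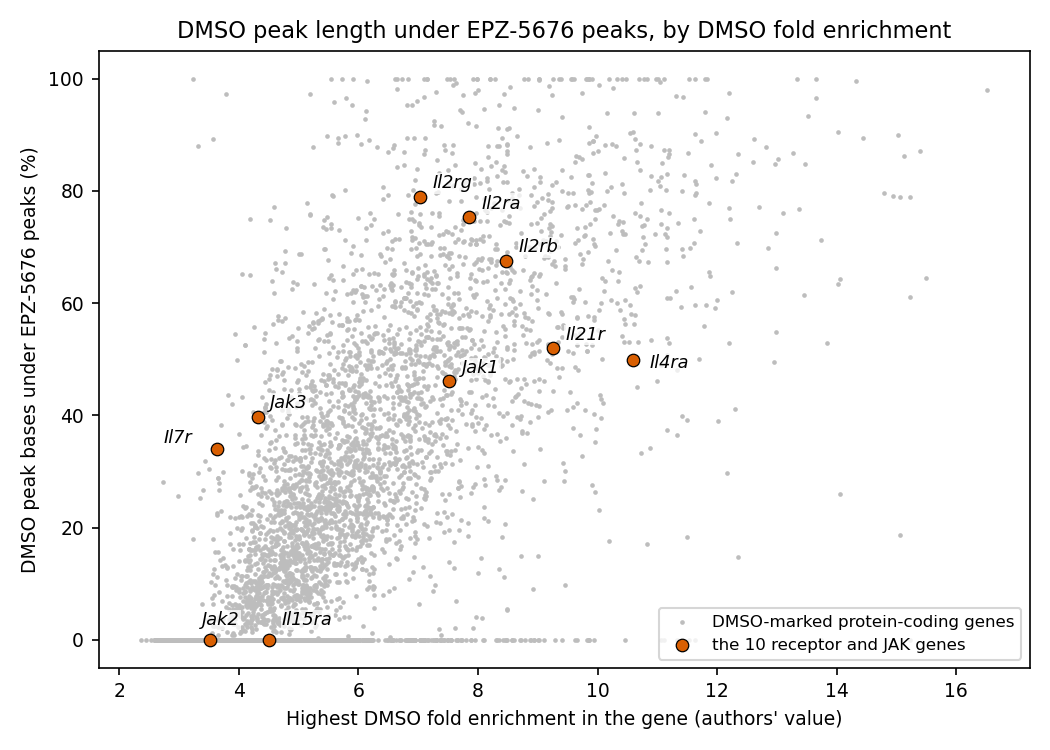
Each grey point is a DMSO-marked protein-coding gene, by its highest DMSO fold enrichment (x axis, the authors' value) and the percent of its DMSO peak bases under EPZ-5676 peaks (y axis), and the 10 genes are in orange. Il2rg, Il2ra and Il2rb lie at 67.6% or more, and Jak2 and Il15ra at 0.

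Distance from the start site separated the lists further. In the 9 genes with a known start site, bases were pooled, and fewer genes reached the greater distances. EPZ peaks lay over 72.1% of the pooled DMSO bases in the first 5 kb and 70.8% from 5 to 10 kb. The share was 63.9% from 10 to 20 kb, 46.3% from 20 to 40 kb and 14.3% beyond. Beyond 40 kb all DMSO bases were in Jak1. Every Jak1 EPZ peak from 30.6 kb on had a −log10 q below 2, and none of these was left with at least 2 required. Over the DMSO-marked genes with a known start site, 6149 of them in the first 5 kb, the shares ran from 36.5% in the first 5 kb to 16.8% from 20 to 40 kb and 17.1% beyond, and over those at 7 or more, 950 genes in the first 5 kb, from 80.0% to 43.1% and 39.2%. Without Jak1 the pooled shares were 67.4%, 63.5%, 52.6% and 29.6% in the first 4 distances, from 8 genes in the first and 6 in the last of these. Past 5 kb their DMSO bases lay only in Il2ra, Il4ra, Il21r and Jak2. From 20 to 40 kb all their EPZ bases were in Il2ra. The decline was thus also present in the pooled bases without Jak1, but the genes that contribute change with distance.

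Among the genes with a known start site, only Il2ra, Il4ra, Il21r and Jak1 had EPZ bases past the first 5 kb. Of these, Il2ra departed from that order. Il4ra and Il21r had EPZ peaks over every base of the first 10 kb and over none past 20 kb, where DMSO peaks covered 4.57 and 11.0 kb. Il2ra had 53.9% of its DMSO bases under EPZ peaks from 5 to 10 kb but 84.1% from 10 to 20 kb, the distance where its second EPZ piece lay. Jak1 had every base of the first 20 kb under peaks in both lists.

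**Figure D4:**
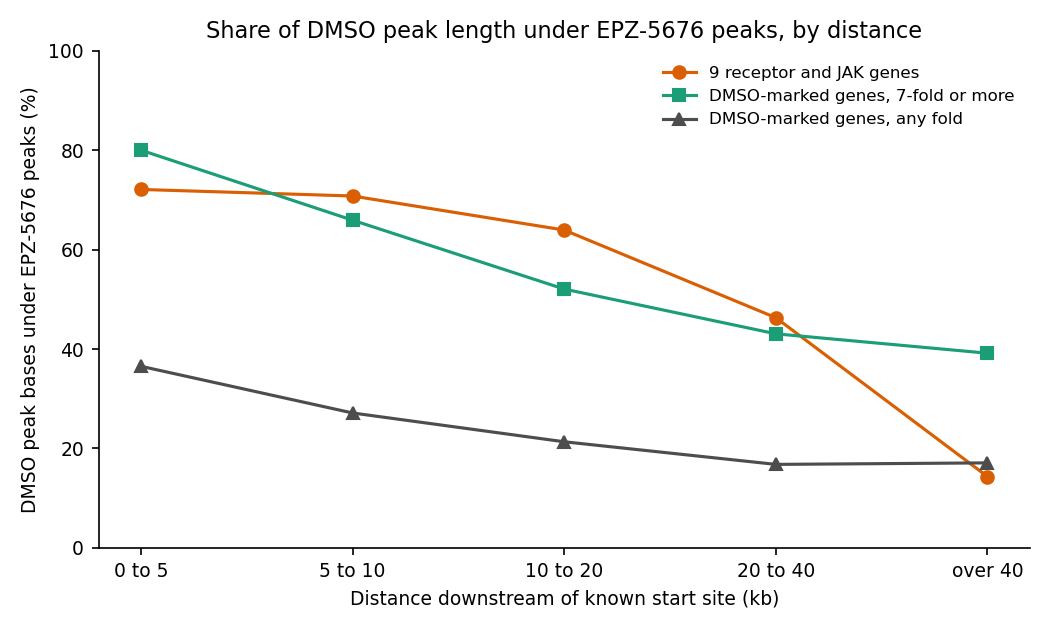
Lines give the percent of DMSO peak bases that lie under EPZ-5676 peaks, by distance in kb downstream of the start site, for the 9 genes, for DMSO-marked genes with a fold enrichment of 7 or more and for DMSO-marked genes of any fold enrichment, in each case only those with a known start site. The pooled bases of the 9 genes go from 72.1% in the first 5 kb to 14.3% beyond 40 kb, with fewer genes reaching the greater distances. There only Jak1 contributes, through EPZ peaks with a −log10 q below 2.

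Of the 16 other protein-coding genes next to a member, 1 had an EPZ peak, 0 an SGC peak and 8 a DMSO peak, against 15.9% in EPZ, 0.142% in SGC and 34.5% in DMSO of all protein-coding genes. The one in EPZ was Rbm17, a splicing factor gene beside Il2ra, with 1.88 kb in EPZ and 5.05 kb in DMSO. Neither neighbour of Il2rb (Tmprss6 and C1qtnf6), of Il7r (Capsl and Spef2) or of Jak1 (Cachd1 and Ak4) had a peak in any list. Med12 beside Il2rg, Gtf3c1 beside Il21r, Fbh1 beside Il15ra, Nsmce1 beside Il4ra, Rcl1 beside Jak2, Unc13a beside Jak3 and Gm614 had DMSO peaks only, and B3gnt3 beside Jak3 and Insl6 beside Jak2 had none. Raver2, whose interval overlaps that of Jak1 by 397 bases, had no peak, and neither did the noncoding RNA gene Gm39760, of which 10507 bases lie in Il2ra.

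By a fixed measure, the genes most like Il2rg, the member of highest EPZ share within its gene interval, were Osm, D17H6S56E-5 and Rnf126. The measure was the distance in log10 DMSO peak bases, highest DMSO fold enrichment and EPZ share of DMSO bases, over 3 values from 2 lists. These genes had shares of 79.2%, 74.2% and 73.9%. Because the EPZ share is part of the measure, similar shares, or no EPZ peak for Jak2 and Il15ra, follow from the choice. For Jak2, at a share of 0, the closest were Pou2f1, Pfkfb3 and Rabgap1l, with 11.1, 11.0 and 11.4 kb under DMSO peaks at fold enrichments of 3.53, 3.49 and 3.45 and no EPZ peak. For Il15ra they were Npepl1, Dhx35 and Zfp689, each with less than 1 kb under DMSO peaks and no EPZ peak.

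The rest of the pathway was read from a list of 64 genes, chosen with earlier results of these data known and used as context only. Of these, 35 had an EPZ peak, 1 an SGC peak and 47 a DMSO peak, or 54.7%, 1.56% and 73.4%. Over all protein-coding genes the shares were 15.9%, 0.142% and 34.5%, which also stand beside the counts by role below. None of 8 ligand genes, among them Il2, Il7, Il15 and Il21, had a peak in any list, nor did Tyk2, the remaining JAK. Of 16 other receptor chains 8 had an EPZ peak and 11 a DMSO peak. Ifngr1, a chain of the interferon gamma receptor, had 8.70 kb in EPZ and 16.5 kb in DMSO, and Il27ra 0.334 kb in EPZ and 2.56 kb in DMSO; these were the most and the fewest DMSO bases among the marked chains. Il9r and Il13ra1, which pair with Il2rg and Il4ra products, and Crlf2, Csf2rb and Lifr had none.

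Of the 7 STAT genes 5 had an EPZ peak and all 7 a DMSO peak. Stat5b, which acts downstream of the interleukin-2 receptor, had 3.92 kb in EPZ and 41.4 kb in DMSO, the most DMSO bases of the STATs, so 9.47% of its DMSO bases were under EPZ peaks, below every one of the 8 receptor and kinase genes that had an EPZ peak. Its neighbour and close relative Stat5a had none in EPZ and 0.357 kb in DMSO. Of 15 inhibitors and phosphatases 10 had an EPZ peak and 14, all but Socs5, a DMSO peak. Pias1 had 9.50 kb in EPZ and 47.0 kb in DMSO, and Pias3 none in EPZ and 0.733 kb in DMSO.

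Of 7 adaptors 3 had an EPZ peak and 5 a DMSO peak, led by Grb2 at 17.8 kb in EPZ and 55.9 kb in DMSO, while Shc1 had 4.41 kb in DMSO alone and Gab2 and Irs2 none. Of the 10 target genes 9 had an EPZ peak and all 10 a DMSO peak. Bcl2, the survival gene that these cytokines sustain, had 118.5 kb in EPZ and 172.6 kb in DMSO, and Id2 2.29 kb in both. The 1 gene of the list with an SGC peak, named after its value was seen, was the kinase gene Pim1, over 0.863 kb in SGC, 5.33 kb in EPZ and 5.33 kb in DMSO. The median EPZ share of DMSO bases was 50.9% in the 8 receptor and kinase genes with an EPZ peak, against 35.4% in pathway genes marked in both lists.

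The inhibitors carried the same dose label and day, and differed at these genes in called peaks, with 0 of 10 genes in SGC and 8 of 10 in EPZ. Both counts come from the same 10 genes, chosen by name, so they measure no spread and a difference between the inhibitors was not tested. Over all protein-coding genes the shares were 0.142% in SGC and 15.9% in EPZ, so the direction was that of the lists as a whole. The depth behind the lists is unknown and cannot be told apart from the compounds. Whether the same labelled dose inhibited DOT1L equally was not tested.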

How the data were processed

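H3K79me2 ChIP-seq was available as 1 broad peak list per treatment. Per the labels, each treatment had 2 immunoprecipitated and 2 input libraries. Alignment and peak calling tools appear in the submitters' processing notes as MACS2 (2.2.7.1), BWA (0.7.17-r1188) and Picard, with mm10, which is GRCm38, and sacCer3 as genomes. The sources used here do not say how replicates were combined, whether input or yeast reads entered, or which cutoffs were set. The deposited fold enrichment is the authors' ratio over background per peak, read from the broad peak layout, and was used only within its own list. The deposited −log10 q value of a peak is likewise the authors' and served as a filter.

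Peaks were converted to 1-based positions and joined to gene intervals of RefSeq (GRCm38.p6) by overlap of at least 1 base, with Python 3.11.15, pandas 2.3.3 and scipy 1.17.1. Bases under peaks, peak edges and the intersection of the EPZ and DMSO lists were computed for all 21900 protein-coding genes. Start sites and strand came from the RefSeq promoter windows; where a gene had several, the first was used. The overlap code was checked on simulated intervals. Shares carry exact (Clopper-Pearson) 95% intervals where given, which cover counting only. No test was possible with 1 list per treatment. The text names all 10 members, their nearest protein-coding neighbours, genes sharing a peak, the genes most alike, and from each pathway role the marked genes of most and fewest DMSO bases and up to 5 unmarked ones. The members and the pathway list were chosen with earlier results of these data known.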

Additional observations from a re-analysis of the deposited data

How the results depend on the processing

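The counts of genes with a peak (8 in EPZ, 0 in SGC, 10 in DMSO) stayed within 1.5 times under 6 other settings. With a −log10 q of 5 or more, 6 genes were left in EPZ, where Il7r and Jak3 were lost, and 7 in DMSO, where Il7r, Il15ra and Jak2 were lost, while the share over all protein-coding genes was 7.68% in EPZ and 17.3% in DMSO. Peaks of at least 1 kb left 7 genes in EPZ and 9 in DMSO, where the share over all protein-coding genes was 13.1% in EPZ and 31.4% in DMSO. Overlapped DMSO peaks numbered 8 of 15, against 26.9% of all DMSO peaks. They numbered 6 of 7 with the stricter q, and 6 of 15 when at least 50% of the DMSO peak had to be covered. The share over all DMSO peaks is not given at those other settings, so these counts are not read as particular to the 10 genes. The median EPZ share of DMSO bases, 50.9%, was 58.7% at a −log10 q of at least 5, 49.0% at 2 or more, 52.0% for peaks of at least 1 kb, 48.4% with genes widened by 5 kb and, in an alternative chosen after seeing the data, 48.0% over all 10 genes. It did not move when 50% of the peak had to lie in the gene or when a peak went only to the gene of most overlap. No paired analysis was possible because each treatment has 1 peak list, and for the same reason no replicate could be left out. Depth is unknown, and the DMSO peaks of Il7r, Jak2 and Il15ra had −log10 q values of only 1.33 to 4.76.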
